A study of Saccharomyces cerevisiae with 2 samples.

Results

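The 486 nucleotides from position 1870 to 2355 of the 25S rRNA, about domain IV of the large subunit RNA, were examined for contacts of Puf6. They were taken by position alone from the 3396 nucleotides of the 25S table, of which they are 14.3%. The cells were Saccharomyces cerevisiae of 1 group, a strain whose Puf6 carries the HTP tag (a histidine tag, a TEV protease site and protein A), grown in YPD to mid-log phase and irradiated with UV light. The series has 2 samples of this group, but the tables hold 1 library, and which of the samples it is could not be told from the labels. The values thus carry no error over replicates, and no untagged control library was analysed here. The library had 1316148 cDNAs, of which 241334 were mapped, and the 25S table stopped at its limit of 5000 cDNAs.

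In CRAC, UV light links a tagged protein to the RNA it touches in the living cell. The complex is purified, RNA outside the protein's reach is trimmed by RNase, and the fragments left are copied into cDNA and sequenced. The remnant of the protein on the RNA makes reverse transcriptase skip a nucleotide, so a deletion in the cDNA marks a cross-linked position more narrowly than the fragment does. Domain IV forms much of the face of the large subunit that meets the small subunit. Its helices H66, H68 and H69 lie at that face, H68 near the site where tRNA leaves and H69 in a bridge between the subunits. H68 ends in a GAAA tetraloop, a compact RNA turn that can dock onto another part of the rRNA. Puf6 is an assembly factor of the large subunit with a Pumilio repeat domain, a fold that binds RNA. Hits below are the cDNAs that cover a nucleotide, deletions are the cDNAs with a deletion there, and the deletion rate is their ratio in percent.

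The stretches that carry the results are shown first, 5′ to 3′, with capitals at the nucleotides called by the test given below, which compares a deletion rate with that of the rest of the 25S. Nucleotides in lower case were not called, though some had rates above that of the 25S. The hairpin at 2150 to 2186 is H66, which holds a GAAA in its predicted loop, and those at 2193 to 2242 and 2246 to 2278 follow it. The fourth sequence joins these last hairpins and holds A2244 and C2245, which lie between them, and the other 3 surround the called nucleotides that lie farther out.
H66, 2150 to 2186: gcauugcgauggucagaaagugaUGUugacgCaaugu
hairpin 2193 to 2242: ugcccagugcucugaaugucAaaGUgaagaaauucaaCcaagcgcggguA
hairpin 2246 to 2278: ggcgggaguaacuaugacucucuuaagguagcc
between these hairpins, 2232 to 2255: aagcgcggguAaACggcgggagua
around U1924, 1914 to 1934: gauccguaacUucgggauaag
around U2140 and U2141, 2130 to 2151: gacugucuaaUUaaaacauagc
around U2286, C2287 and G2288, 2276 to 2298: gccaaaugccUCGucaucuaauu
In the genome build R64 the whole region is chrXII:452827-453312 on the minus strand, in the rDNA unit RDN25-1. All 3396 nucleotides of the 25S table equal that reference, and 0 nucleotides of the region differ in the second annotated copy, RDN25-2. Within the exon of the mature 25S rRNA, H66 is chrXII:452996-453032, the next hairpin chrXII:452940-452989 and the one after it chrXII:452904-452936.

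Most hits of the region sat on 1 hill around G2216. Of all 25S hits, 237183 of 312894 (75.8%) were in the region, as were 1591 of the 1996 deletions (79.7%). The hits rose to 2562 at G2216, where 51.2% of the 5000 cDNAs passed (exact 95% interval 49.8% to 52.6%, which covers counting error only). They ran as low as 11, with a median of 79, against a median of 13 and a highest value of 383 outside the region. The stretch around G2216 with at least 50% of the highest hits spanned 76 nucleotides, from 2167 to 2242, with 67.3% of the region's hits and 82.2% of its deletions. It reached 49 nucleotides to the 5′ side of G2216 and 26 to the 3′ side. The stretch with at least 10% of the highest hits spanned 159 nucleotides, from 2138 to 2296. It was nearly symmetric, with 78 nucleotides before the peak and 80 after it, and took in 91.5% of all hits and 96.6% of all deletions of the region.

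**Figure D1:**
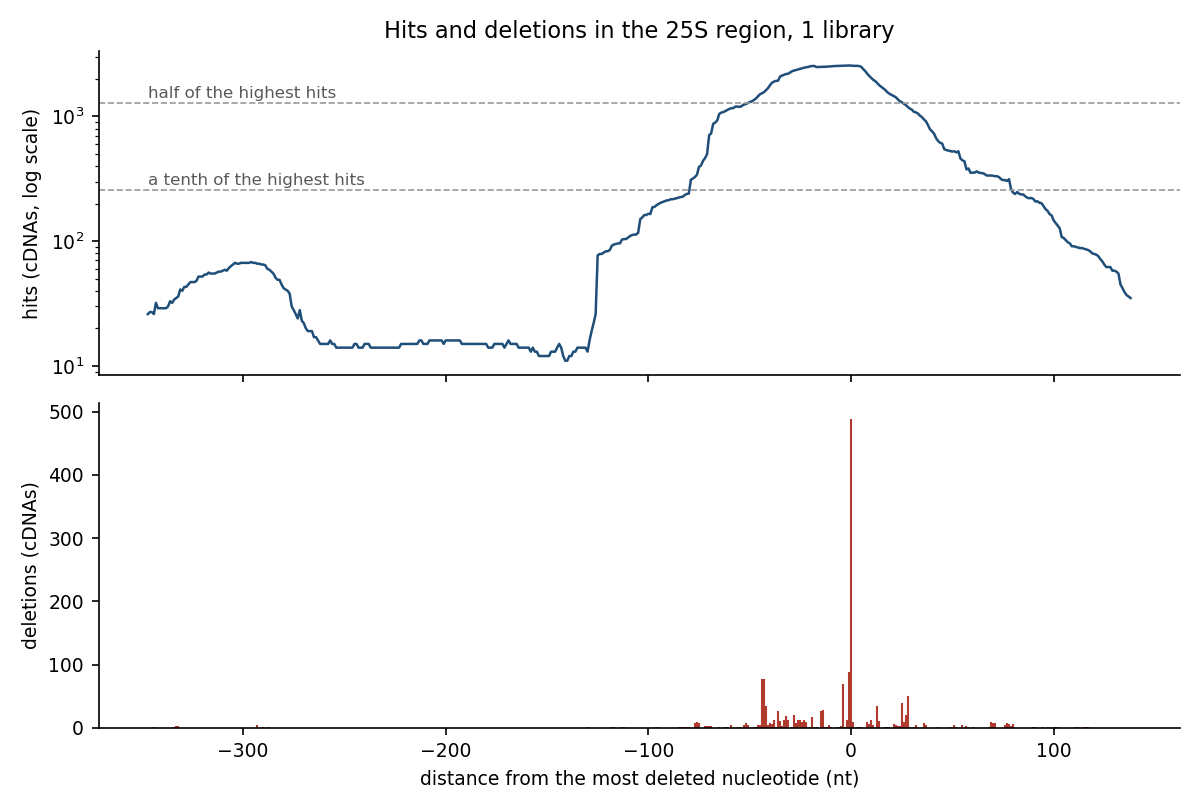
Hits (upper panel, log axis, cDNAs over each nucleotide) and deletions (lower panel, cDNAs) in 1 library, by distance in nucleotides from the most deleted nucleotide, U2217. Dashed lines mark 50% and 10% of the highest hits, 2562. The 489 deletions at distance 0 are the most at any nucleotide, and 1 low hill of up to 68 hits lies near distance -296.

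Cut into 9 blocks of 54 nucleotides, the region ranged from a median of 14 hits to a median of 2485. The block from 1870 to 1923 had a median of 52 hits and 8 deletions. The median fell to 19 hits in 1924 to 1977, to 15 in 1978 to 2031 and to 14 in 2032 to 2085, and the last 2 of these blocks held 0 deletions. It was 133.5 hits in 2086 to 2139, with 15 deletions. The blocks 2140 to 2193 and 2194 to 2247, which hold H66 and the hairpin after it, had medians of 1292 and 2485 hits and 445 and 1008 deletions. Beyond them the median was 379.5 hits with 90 deletions in 2248 to 2301, and 89.5 hits with 18 deletions in 2302 to 2355.

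**Figure D2:**
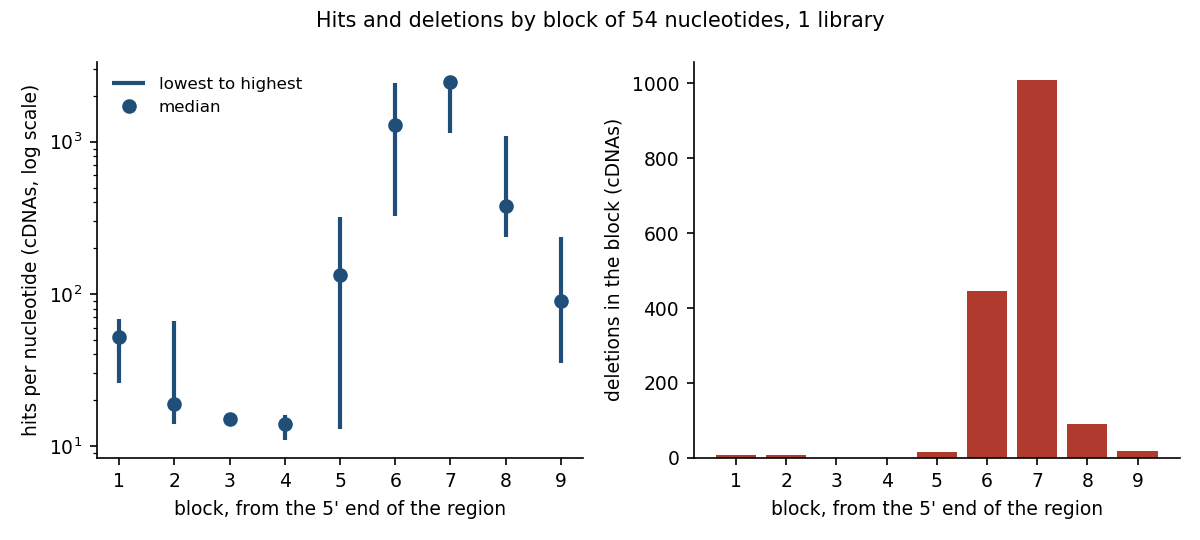
Left, the median (point) and the lowest to highest value (line) of the hits per nucleotide in each of the 9 blocks, on a log axis. Right, the deletions in each block, of 1 library; blocks 6 and 7 hold 445 and 1008 deletions, and blocks 3 and 4 hold 0.

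The floor of the profile was taken as the longest run of nucleotides with at most 16 hits. The upper bound of its hits was thus set by that choice. From 1954 to 2088, about the place of expansion segment ES27L, a long RNA arm that reaches out from the ribosome, all 135 nucleotides had between 11 and 16 hits, with a median of 15. At 97 of them the hits equalled those of the nucleotide before. The 135 nucleotides held 1 deletion, at C2087, in 1948 hits. The longest predicted hairpin of the region, from 1963 to 2059, lies inside and had 0 deletions in 1434 hits. At this depth a single nucleotide says little, since one with 14 hits and no deletion has an upper limit of 23.2%. Just after the floor the hits rose in a step from 26 at U2091 to 77 at A2092. That place was chosen after its values were seen.

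At the level of single nucleotides the deletions were far more concentrated than the hits. Of the 486 nucleotides, 350 had no deletion, 62 had 1 or 2, and 31 had 10 or more. The 136 nucleotides with a deletion (28.0%) compare with 4.39% of the 25S before the region and 8.45% after it, where the hits were lower. U2217 alone held 489 of the 1591 deletions (30.7%), and the 5 most deleted nucleotides held 803 (50.5%). Pooled over the region, the deletion rate was 0.671%, against 0.356% before it and 0.640% after it. Without U2217 it was 0.470%, between the 0.535% of all 25S nucleotides outside and the 0.310% of those nucleotides without the last 100 of the 25S. The rate after the region likewise rested on those last 100 and was 0.244% without them. In the region's flanks, outside the 159 nucleotides of the hill, it was 0.266%.

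Each 25S nucleotide with at least 50 hits was compared with the rest of the 25S by a one-sided Fisher's exact test, with Benjamini-Hochberg adjustment over all of them. Over the whole 25S 21 of 482 tested nucleotides (4.36%) were called at an adjusted p under 0.05, and in the region 17 of 297 (5.72%). Outside the region 4 of 185 (2.16%) were called. These 4 calls were all near the 3′ end of the molecule, in its final 100 nucleotides (U3351, U3352, G3353 and U3380). All 100 of these were tested, so they made up 100 of the 185. Before the region the hits reached at most 51, next to the minimum of 50. Hits reached 2562 in the region and 383 outside it, so the shares called were not compared at equal depth. The test treats the hits of different nucleotides as independent, although 1 cDNA covered 62.6 nucleotides on average, and it holds no spread between libraries. Deletions at neighbouring nucleotides may also lie in the same cDNAs, so the 17 calls need not be 17 separate sites. Of the 17, 16 lay on the 159 nucleotides of the hill and 9 on its upper 76. At an unadjusted p under 0.05 there were 24.

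U2217 had the highest rate of the nucleotides tested in the region. It had 489 deletions in 2560 hits, a rate of 19.1% (exact 95% interval 17.6% to 20.7%), and its adjusted exact p was smaller than double precision can hold. Outside the region U3351, near the 3′ end of the 25S, came nearest, with 56 deletions in 379 hits (14.8%, interval 11.4% to 18.8%). The intervals of these uridines overlap. The study marks a signal at helix H99 of the 25S as non-specific and common in CRAC. Whether U3351 belongs to that signal was not examined here. G2216 on the 5′ side of U2217 had 89 deletions in 2562 hits (3.47%, interval 2.80% to 4.26%, adjusted exact p = 3.7e-35). G2218 on its 3′ side had 9 in 2547 (0.353%, interval 0.162% to 0.670%) and was not called. The 3 intervals do not overlap, so the rate fell steeply to both sides and further to the 3′ side than to the 5′ side. U2217 has no U beside it, so a deletion of U2217 alone had only 1 place. A longer deletion of U2217 with a G beside it leaves the same read whether that G is G2216 or G2218. The lengths of the deletions are not given, so how far such placement enters the difference between the sides was not tested.

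A2213, in a run of 3 adenosines 4 nucleotides before U2217, had 70 deletions in 2553 hits (2.74%, adjusted exact p = 9.0e-22). A2214 had 1 in 2553 and A2215 had 13 in 2560. A deletion inside such a run cannot be assigned to 1 of its bases. Summed over the run there were 84 deletions, which is 3.28% of its highest hits. The nucleotide before the run, C2212, had 3 deletions in 2544 hits.

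In H66 the deletions lay on the 3′ strand. U2173 had 78 deletions in 1531 hits (5.09%, interval 4.05% to 6.32%, adjusted exact p = 9.8e-42) and G2174 had 77 in 1565 (4.92%, interval 3.90% to 6.11%, adjusted exact p = 2.3e-40). Their rates were nearly equal. A deletion that spans both may be counted at each, and the lengths of deletions are not given, so these counts may share cDNAs. A deletion of U2173 with G2174 also leaves the same read as that of G2174 with U2175. U2175 followed with 35 in 1620 (2.16%, adjusted exact p = 4.0e-08), while A2172 before them had 4 in 1502. U2176 after them had 5 in 1683, but it forms a run with U2175. The deletions of that run, 40 in all and 2.38% of its highest hits, cannot be assigned to 1 of its bases. C2181, 6 nucleotides beyond U2175, had 27 deletions in 1935 hits (1.40%, adjusted exact p = 0.0050). G2180 before it had 1 in 1927 and A2182 after it 11 in 2088. The 3′ strand of H66 held 315 of its 341 deletions at a pooled rate of 1.02%, the 5′ strand 14 (0.083%) and the loop 12 (0.184%).

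Past the peak the called nucleotides were C2230, A2242, A2244 and C2245. C2230, in the 3′ strand of the hairpin 2193 to 2242, had 34 deletions in 1846 hits (1.84%, adjusted exact p = 2.9e-06). A2229 before it had 0 in 1920, and C2231 after it, in the same run, had 11 in 1778. That run had 45 deletions in all, 2.44% of its highest hits. A2242 had 40 in 1306 (3.06%, adjusted exact p = 5.8e-14), A2243 had 10 in 1267, and A2244 had 21 in 1237 (1.70%, adjusted exact p = 0.0022). These adenosines form a run with 71 deletions in all, 5.44% of its highest hits. C2245 had 50 deletions in 1194 hits (4.19%, interval 3.12% to 5.48%, adjusted exact p = 4.2e-23) and G2246 had 1 in 1157. The group of 3 called nucleotides sits at the foot of that hairpin. A2242 is its last nucleotide, and A2244 and C2245 lie between it and the next hairpin.

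**Figure D3:**
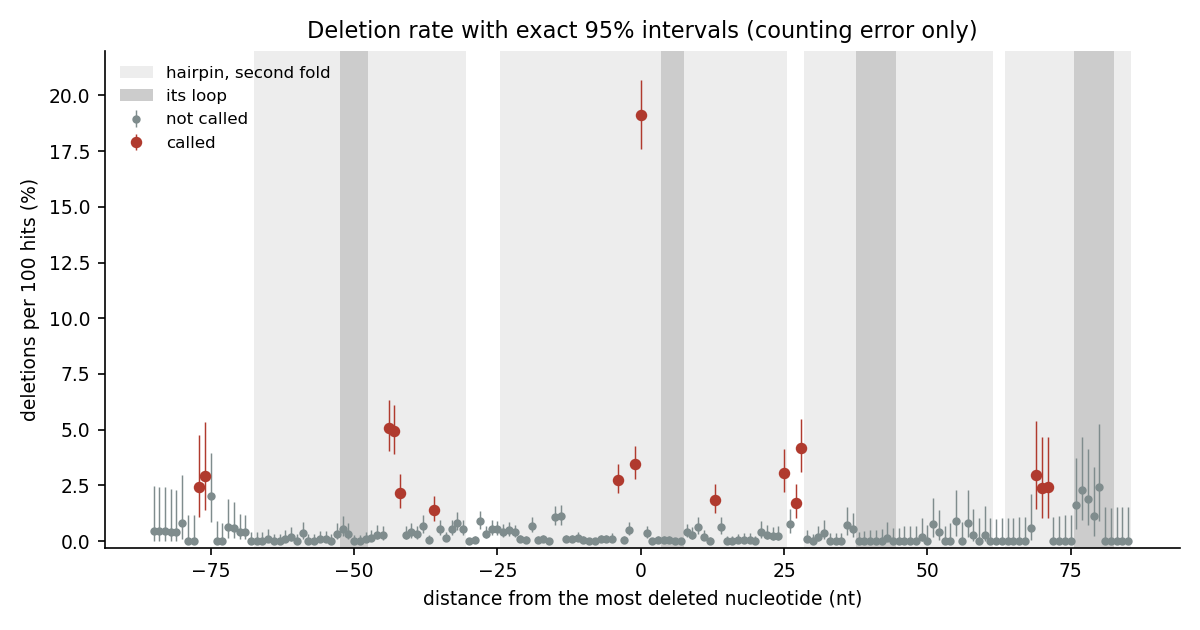
Deletions per 100 hits with exact 95% intervals (counting error only) at nucleotides within 85 of U2217, by distance from it in nucleotides; red points were called and grey points were not. Light shading marks hairpins and dark shading their loops in the fold with the second GAAA closed as a loop. U2217 at 19.1% lies above all others in this window, of which U2173 at 5.09% is the next called one.

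Farther from the peak, rates rest on fewer cDNAs. U2140 had 8 deletions in 327 hits (2.45%, adjusted exact p = 0.034) and U2141 had 10 in 341 (2.93%, adjusted exact p = 0.0024), 18 in all for this pair. On the other side U2286 had 10 in 336 (2.98%, adjusted exact p = 0.0022), C2287 had 8 in 335 (2.39%, adjusted exact p = 0.036) and G2288 had 8 in 332 (2.41%, adjusted exact p = 0.036). C2285 before them had 2 in 336 and U2289 after them 0 in 332. With a minimum of 10 hits the calls of U2140, C2287 and G2288 were lost, and the last pair also in the 35S table. U1924 was the single call outside the hill, with 5 deletions in 66 hits (7.58%, interval 2.51% to 16.8%, adjusted exact p = 0.0022). U1925 beside it had 0 in 66, but both form a run, so the deletions may belong to either. U1924 is named because the deletions were recorded there. That run lies on the low hill that tops out at 68 hits over A1921. Earlier on that hill A1884 had 3 deletions in 35 hits and U1885 3 in 36, below the minimum for the test.

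The stretches with deletions differed in length. Deletions formed 42 stretches of neighbouring nucleotides, of which 13 were single nucleotides. Any deletion counted, even a lone one, so these lengths also follow the hits and do not measure how sharp a contact is. The longest ran over 18 nucleotides on the 3′ side of H66, from G2169 (1352 hits) to U2186 (2201 hits), with 316 deletions. The heaviest ran over 9 nucleotides from 2210 to 2218, with 678. Of 32 neighbour pairs with at least 5 deletions each, 8 were within a ratio of 1.2. U2173 and G2174 (78 and 77) are the largest such pair, and C2202 and U2203 (27 and 28) the next. A deletion that spans a pair may be counted at both of its nucleotides, so these counts may share cDNAs. C2202 and U2203, on the 5′ strand of the hairpin with U2217, had rates of 1.08% and 1.12% and were not called (adjusted exact p = 0.11 and 0.071).

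The ends of the fragments were read from the steps of the hits, since a net rise is the least number of cDNAs that start at a nucleotide and a net fall the least number that end before it. There were 168 nucleotides with a net rise and 174 with a net fall, and 4 rises and 2 falls exceeded 100 cDNAs. At A2147 the hits rose by 209, from 498 to 707. At A2182 they rose by 153, at A2149 by 141 and at A2152 by 120. All 4 of these steps were at an adenosine that follows a C or a U. Such places make up 10.7% of the region (52 nucleotides) and carried 36.8% of the net rise of 2734 cDNAs. The class is named from these 4 steps and its sum includes them, so the share is no separate result. The 8 largest rises, which also include G2177 (95), A2178 (82), A2138 (70) and U2176 (63), carried 34.1%.

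The largest fall was 110 cDNAs at U2225, from 2315 to 2205, then 104 at A2223, 90 at U2226, 88 at A2224, 76 at C2227, 74 at C2230, 73 at A2228 and 68 at C2231. Together these 8 carried 25.1% of the net fall of 2725 cDNAs, and all lie 6 to 14 nucleotides after U2217, in the second GAAA and the strand after it. Before the peak the hits barely fell, the largest drop on the hill being 48 cDNAs at U2200.

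**Figure D4:**
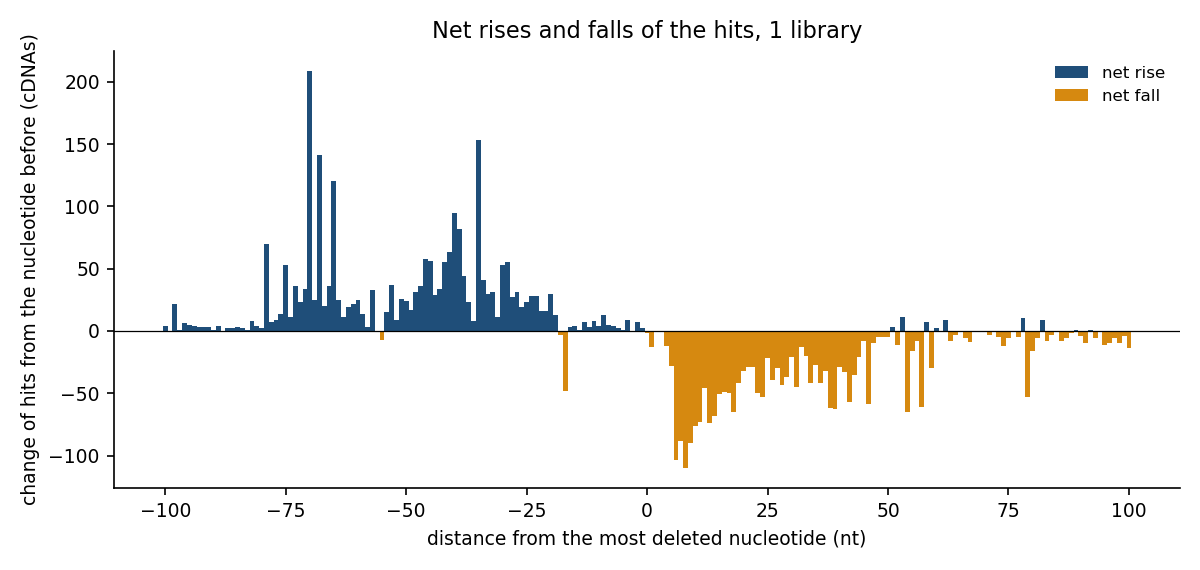
Change of the hits from one nucleotide to the next (cDNAs) in 1 library, by distance in nucleotides from U2217, with net rises in blue and net falls in orange. The tallest rise, 209 cDNAs, lies at distance -70, and the deepest fall, 110, at distance 8; falls before distance 0 are few and small, up to 48 at distance -17.

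The GAAA motif occurs at 2 places of the region. The first, 2165 to 2168 in the loop of H66, had 11 deletions at 1254 to 1321 hits per nucleotide. The second, 2221 to 2224, had 2 deletions at 2315 to 2535 hits, so that G2221 and A2222 had 1 each and A2223 and A2224 none. Within 10 nucleotides of these motifs there were 243 and 757 deletions. UUGU, a motif tied to Puf6 in mRNA, and UGUA, the core of the sites that Pumilio proteins bind there, occur 4 and 3 times. They had 0 deletions, but only 12 to 15 hits per nucleotide at all but the UGUA at 1888 to 1891, which had 43 to 47.

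Which nucleotides of the tip are paired depended on the fold. In the minimum free energy fold of the region, the hairpin 2193 to 2242 has its loop at 2213 to 2220, so that U2217 is unpaired and the second GAAA is outside the loop. For this reason it is not called H68 from that fold. In a second fold, added after the values were seen, the pair A2220-U2225 was imposed to close the second GAAA as a loop, as the study draws H68. The hairpin then keeps its ends, holds the GAAA in its loop and can be called H68, the hairpin 2246 to 2278 after it is then H69, and U2217 pairs with A2228. The second fold is less stable by the model (-160.6 against -163.8 kcal/mol). In it, the 5′ strand of H68 held 798 of the hairpin's 936 deletions, the loop 2 in 9760 hits (0.020%) and the 3′ strand 136. In the first fold the 8-nucleotide loop held 672.

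The deletion rate of paired and unpaired nucleotides changed order with that choice. In the minimum free energy fold it was 0.329% at the 298 paired nucleotides and 1.16% at the 188 unpaired ones, of which 6 and 11 were called. In the second fold it was 0.723% at paired and 0.604% at unpaired nucleotides. Without U2217 the unpaired rate was the higher in both folds (0.674% against 0.329%, and 0.604% against 0.362%).

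H69 carried many cDNAs and few deletions. The hairpin 2246 to 2278 had between 353 and 1157 hits and 36 deletions in 22449 hits (0.160%), none of them called. Its 7-nucleotide loop, 2255 to 2261, had 1 deletion in 5054 hits. The hairpin that follows, 2281 to 2310, had 57 deletions at 203 to 352 hits (0.681%), and the 3 called nucleotides U2286, C2287 and G2288 lie in it.

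By base, U had the highest pooled rate, 1.40%, while C had 0.531%, G 0.457% and A 0.349%. U held 51.5% of the deletions with 24.6% of the hits. Without U2217 the rate at U was 0.591%, so that U and C were then close. Of the 17 called nucleotides 7 were U, 4 C, 3 A and 3 G. Among all nucleotides of the region 26.3% were U, 20.0% C, 25.7% A and 28.0% G.

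The annotation of the genome places 22 modified nucleotides in the region whose base matches the table, among them 11 pseudouridines and 9 ribose methylations, most of them guided by small nucleolar RNAs. They had 36 deletions in 13434 hits (0.268%), and 13 had none. The most covered were C2197 (methylated by way of SNR76), with 1 deletion in 2527 hits, A2220 (SNR47), next to the second GAAA, with 1 in 2547, and the pseudouridine U2191 (SNR32), with 13 in 2386. The 4 pseudouridines of H69, at U2258, U2260, U2264 and U2266, had 0, 1, 0 and 1 deletions in 528 to 728 hits. A2142, methylated on its base by BMT2, had 8 in 394 hits (2.03%) and was not called (adjusted exact p = 0.078). G2288 (SNR75) was the single modified nucleotide called, and not under the alternatives named above. Whether a modification adds to the deletions at these nucleotides was not tested.

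The 35S table, whose header gives the same totals of cDNAs, is no second library. At 0 nucleotides of the region did its hits or deletions exceed those of the 25S table, and its sums came to 84.9% (hits) and 81.9% (deletions) of that table's. In it U2217 had 417 deletions in 2213 hits, and all 8 of the largest rises and all 8 of the largest falls were the same nucleotides.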

How the data were processed

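Puf6 contacts were measured by CRAC in 1 library. The authors aligned the reads with Novoalign to R64 and wrote pileup tables with pyCRAC. The deposited coverage signal (hits) is the number of sense cDNAs over a nucleotide, and the deposited deletion counts are the cDNAs with a deletion there. Per the file headers, at most 5000 cDNAs were tabulated per RNA, deletions alone were recorded, and the blocks option was on, which in pyCRAC counts cDNAs of equal start and end once. PCR copies that differ in an end remain, so intervals cover counting error only. From these values were computed deletion rates with exact Clopper-Pearson 95% intervals, one-sided Fisher's exact tests at 50 hits or more, steps, and folds (RNAfold of ViennaRNA 2.7.2). The test was run on simulated deletions, drawn independently over the real hits at a common rate with some nucleotides raised. That simulation has no shared cDNAs or PCR copies, so it does not check the test for them. Sequence and modified sites came from RefSeq's R64, with 1 of 23 annotated sites left out because its base differed. The members, motifs and tests were chosen with earlier results of these data known. Named are the nucleotide the study names, the 25 with the most deletions, those with the most hits or deletions of each of 9 blocks, the 8 largest rises and falls, and the motifs. Alternatives covered the table, the minimum of hits, the nucleotides compared with, runs of one base, and pairing. Python, numpy, pandas, scipy and matplotlib were used, and the 5S table was not used.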

Additional observations from a re-analysis of the deposited data

How the results depend on the processing

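The number of called nucleotides in the region was 14 with a minimum of 10 hits (without U2140, C2287 and G2288), 16 with 100 (without U1924), 22 against a rest of the 25S without U2217, 16 in the 35S table (15 shared, without C2287 and G2288 and with U2297), and 19 when U2217 and the 5 nucleotides on either side were left out, an alternative added after the data were seen. The alternative of testing against the median single-nucleotide rate gave no value, because that median was 0. The region's share of the 25S hits was 76.2% in the 35S table, 75.6% without U2217 and 83.4% without the last 100 nucleotides of the 25S, and its share of the deletions 73.1% without U2217 and 91.5% without the last 100 nucleotides. Without those 100 nucleotides the deletion rate was 0.310% outside the region and 0.244% after it, an alternative chosen after the data were seen. In the 35S table the stretch over 50% of the highest hits began at 2168 and that over 10% ended at 2295. As means of single-nucleotide rates, the rates were 0.289% at A, 0.380% at C, 0.315% at G and 0.901% at U, and without U2217 the pooled rate at U was 0.591%. With RNAplfold the rate at paired nucleotides was 0.406%. Without U2217 the rate at unpaired nucleotides was 0.674%, 0.345 percentage points above that at paired ones. In the fold with the second GAAA closed as a loop, also added after the data were seen, the rates were 0.723% at paired and 0.604% at unpaired nucleotides, a difference of -0.119 percentage points in the opposite direction. Without the stretch over 10% of the highest hits, likewise added, the rate of the region was 0.266%. Summed over runs of one base, the rate was 5.28% at U2140 and 5.44% at A2242 and A2244. The limit of 5000 cDNAs sets the depth. No paired analysis was possible because the tables hold only 1 library, and no replicate could be left out.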
